A study of Homo sapiens with 3 samples.

Results

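The 10 intermediate filament genes NEFL, NEFM, NEFH, INA, PRPH, VIM, NES, KRT8, KRT18 and KRT19 were followed by name among the 23284 genes listed for each library, and all 10 were found. They were chosen by name as genes of neural and of epithelial cells, for what they show of the identity of HEK293T cells, a human embryonic kidney line that carries adenovirus E1 genes and the SV40 large T antigen. In all 3 RNA-seq libraries the 293T cells carried dCas9-VP64, a transcriptional activator joined to a Cas9 that has lost its cutting activity, and they differed in the sgRNA vector, which was mock (the vector with no L1 target), sgL1ASP #1 or sgL1ASP #3. Both guides target the antisense promoter of the L1 retrotransposon. There was 1 library per condition, so the differences given here have no replicate check and no test. Levels are the deposited FPKM, a fragment count scaled by exon length and by the size of the library. Where 3 values are given in a row without other labels, they are those of mock, sgL1ASP #1 and sgL1ASP #3 in that order. The depth, estimated from the spacing of the lowest values, was 10500000, 10300000 and 8700000 reads. The intervals below are 95% Poisson intervals on reads estimated in this way, and they cover counting error only.

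Intermediate filaments are built from rod-shaped proteins that pair and bundle, and each cell type uses its own set of them. The light, medium and heavy neurofilament proteins (NEFL, NEFM and NEFH) and alpha-internexin (INA) build the filaments of axons, and peripherin (PRPH) is typical of peripheral neurons. Vimentin (VIM) is the filament of mesenchymal and many cultured cells, and nestin (NES) is a large partner of it that is known from neural progenitors. Keratins form obligate pairs of an acidic and a basic chain, with KRT18 and KRT19 as acidic and KRT8 as basic chains of simple epithelia such as kidney tubules.

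What the members have in common as a gene family can be seen in the stretch that codes for the end of the rod. It was located in the canonical GENCODE transcript of each gene on GRCh37 by the pattern tyrosine, arginine, any residue, leucine, leucine and glutamate, which occurred 1 time in each of the 10 proteins. The 30 coding bases that start 1 residue before the pattern are shown for 8 members, 5′ to 3′ on the strand of the gene, with capitals where a base differs from that of VIM.
VIM: acctacaggaagctgctggaaggcgaggag
KRT8: acctacaggaagctgctggaGggcgaggag
PRPH: acctacCgCaagctgctggaGggcgaggag
INA: GcTtacaggaaActgctggaaggcgaggag
NEFH: GcTtacagAaaActCctggaaggTgaAgag
NES: acGtacaggaCCctCctggaGgCTgagAaC
KRT18: acctacCgCCGCctgctggaagATgGCgag
KRT19: acctacCgCaGCctgctCgaGggACaggaA

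KRT8 differed from VIM at 1 of the 30 bases, PRPH and INA at 3, NEFH at 7, and NES, KRT18 and KRT19 at 9. On GRCh37 the stretch lies within 1 exon in VIM (chr10:17277354-17277383, plus strand), PRPH (chr12:49691326-49691355, plus strand), KRT18 (chr12:53346089-53346118, plus strand), KRT8 (chr12:53292468-53292497, minus strand) and KRT19 (chr17:39680034-39680063, minus strand), while in INA, NEFH and NES it is split by an intron. The exon structure separated the members too. The canonical transcripts of VIM and PRPH have 10 and 9 exons and those of KRT8, KRT18 and KRT19 have 8, 7 and 6, whereas those of NEFM and INA have 3, NEFH and NES have 4 and NEFL has 5.

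Because the libraries were read in 75-base single ends, each 75-base window of these transcripts was also searched in GRCh37 for exact matches away from its gene. In NEFL, NEFM, INA, PRPH, VIM, NES and KRT19 there were 0 such windows, and in NEFH there were 3 of 3721. KRT8 had 385 of 1710 windows (22.5%) and KRT18 had 96 of 1339 (7.2%) with a match elsewhere. Many of these places carry the names of pseudogenes, such as KRT8P45, KRT8P10 and KRT18P17, but the place with the most windows of KRT8 (247) lies within the span of ASPH. The FPKM of KRT8 and KRT18 are therefore less certain than those of the other members, since the handling of such reads is not given in the sources used here. Between members the longest identical run was 29 bases, shared by PRPH and KRT8, so a 75-base read without errors fits only 1 of the 10 genes.

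VIM was by far the most abundant member. Its FPKM was 807, 904 and 862. It ranked 91, 89 and 92 from the top of all listed genes in these libraries, and held 81.1%, 82.8% and 82.0% of the summed FPKM of the 10 members. VIM lies on chromosome 10 of GRCh37 from 17270240 to 17279592. NES, on chromosome 1 from 156638555 to 156647199, was far lower, with FPKM 3.38, 3.41 and 2.95. The intervals of NES overlapped between all 3 libraries, from 2.92 to 3.90 in mock and from 2.48 to 3.49 in sgL1ASP #3.

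The keratin pair of simple epithelia was present without KRT19. KRT8, on the minus strand of chromosome 12 from 53290971 to 53343738, had FPKM 68.1, 66.9 and 73.2. KRT18, its partner, lies next to it on the plus strand from 53342655 to 53346690 and had FPKM 60.3, 59.3 and 60.6. The 2 annotated genes overlap at their starts on opposite strands, and the values were calculated with strand taken into account. KRT8 was above KRT18 in every library, at 1.13, 1.13 and 1.21 times its FPKM. Their counting intervals overlapped in mock, with 64.2 to 72.2 for KRT8 and 56.1 to 64.7 for KRT18. The intervals also overlapped in sgL1ASP #1 and did not in sgL1ASP #3. KRT19, on chromosome 17 from 39679869 to 39684560, is listed at 0 in all 3 libraries. At the estimated depth, 3 reads of KRT19 would give FPKM 0.241, 0.245 and 0.290, so levels up to these could have been missed. In all, 5642 genes are listed at 0 in every library.

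The neuronal filament genes were expressed at lower levels than the keratin pair, and INA led them. INA, on chromosome 10 from 105036895 to 105050103, had FPKM 29.7, 32.9 and 31.8, which made up 52.9%, 56.8% and 60.1% of the summed FPKM of the 5 neuronal genes. NEFL had FPKM 9.17, 9.61 and 9.08 in the 3 libraries. NEFM had 5.77, 5.95 and 6.02, and the ratio of NEFL to NEFM was 1.59, 1.62 and 1.51. NEFH, the heavy chain that is added late in the maturation of axons, was close to the limit of detection. Its FPKM was 0.190, 0.384 and 0.261, for about 7, 14 and 8 reads, and the 3 intervals overlapped. PRPH, on chromosome 12 from 49688930 to 49692469, had FPKM 11.4, 9.08 and 5.71. It was the only neuronal member with FPKM at least 1 that differed widely between the libraries.

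Set in order by mean FPKM, the members were VIM (858), KRT8 (69.4), KRT18 (60.1), INA (31.5), NEFL (9.29), PRPH (8.71), NEFM (5.91), NES (3.25), NEFH (0.278) and KRT19 at 0. FPKM is per length, so these levels may be set side by side. The ranges of the 3 libraries overlapped for PRPH with both of its neighbours, NEFL and NEFM, and did not overlap between any other neighbours in this order. These ranges are of the FPKM values and leave out counting error. The summed FPKM was 56.2, 58.0 and 52.8 for the 5 neuronal genes and 128, 126 and 134 for the keratins. The keratin sum was thus 2.28, 2.18 and 2.53 times the neuronal sum. Over the 3 libraries, the genes nearest to INA in level were STMN3, a relative of stathmin, and TMEM222, with log2(FPKM + 0.1) within 0.024 and 0.026 of INA in every library. EIF1 (0.067) and COX7C (0.124) were nearest to VIM, and LSMD1 (0.012) and E2F4 (0.025) to KRT8.

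**Figure D1:**
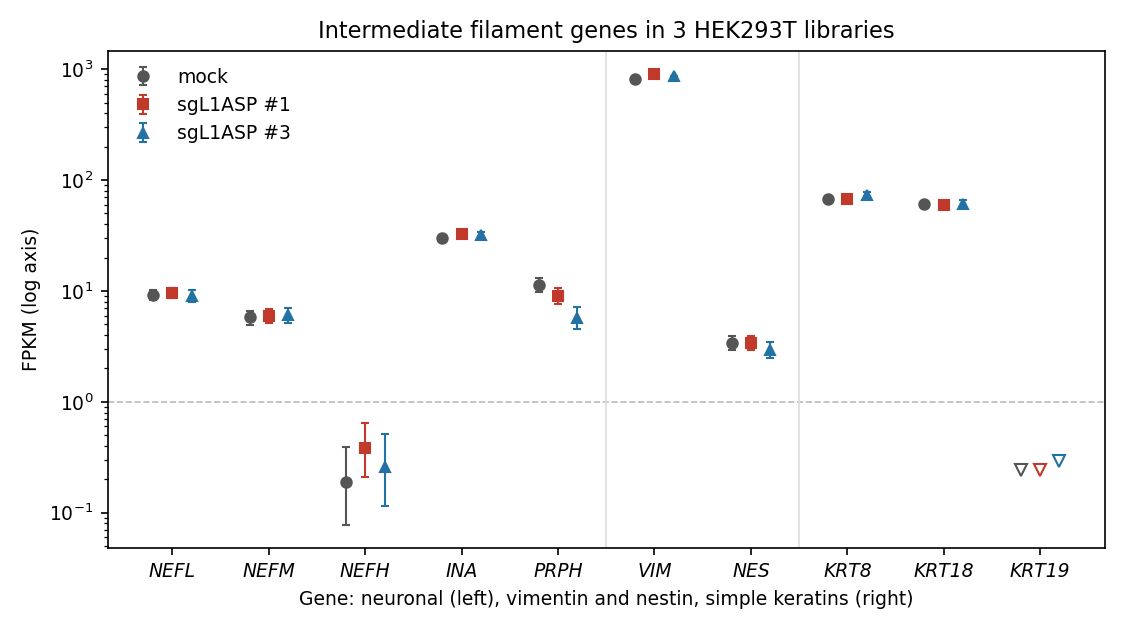
FPKM on a log axis is plotted for each of the 10 genes in mock (circles), sgL1ASP #1 (squares) and sgL1ASP #3 (triangles), with 95% counting intervals, and open triangles mark the FPKM of 3 reads for KRT19, listed at 0. VIM lies between 807 and 904, the keratin pair between 59.3 and 73.2, and PRPH in sgL1ASP #3 (5.71) lies below its mock value (11.4).

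The comparison addressed the change in gene expression when the guides act on the L1 antisense promoter, with the 1.5-fold threshold of the study. Here it was applied to each pair of libraries in both directions. The study counted genes upregulated both from mock to sgL1ASP #3 and from sgL1ASP #3 to sgL1ASP #1. Of the 10 members, 9 had FPKM above 0 in the libraries compared. With sgL1ASP #1 against mock, 1 of the 9 was past 1.5-fold higher (NEFH) and 0 lower, where 5.88% of all genes with FPKM above 0 in both libraries were higher and 5.99% lower. With sgL1ASP #3 against mock, 0 were higher and 1 lower (PRPH), against 5.73% and 6.24% of all genes. With sgL1ASP #1 against sgL1ASP #3, 1 was higher (PRPH) and 0 lower, against 5.93% and 5.84%. The number of members past the threshold was thus near the background of all genes with FPKM above 0, which includes genes under FPKM 1. With mean FPKM at least 1, PRPH was 1 of 8 members lower with sgL1ASP #3 against mock, where 1.84% of all genes were. It was likewise 1 of 8 higher in sgL1ASP #1 against sgL1ASP #3, beside 1.67%, and 0 of 8 were past the threshold with sgL1ASP #1 against mock. The comparisons share libraries, both guides being set against the same mock.

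The median log2 change of the 9 members, taken as log2(FPKM + 0.1), was 0.044 with sgL1ASP #1 and 0.061 with sgL1ASP #3. For all genes whose mean FPKM was at least 1, of which there were 12830, it was 0.001 with either guide. The members were higher than in mock in 6 of 9 cases with each guide, but with all libraries brought to 1 common sum of FPKM in 3 of 9 with sgL1ASP #1 and 1 of 9 with sgL1ASP #3. That scaling moved the median of all genes to -0.092 and -0.117 and that of the members to -0.048 and -0.057. On the deposited scale their median absolute log2 change, 0.066 and 0.095, was not above that of all genes, 0.094 and 0.095.

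The peripherin gene stood apart from the other members. The FPKM of 11.4, 9.08 and 5.71 correspond to about 190, 150 and 79 reads. Relative to mock, PRPH was at 0.502 in sgL1ASP #3, with a counting interval from 0.387 to 0.653, and at 0.799 in sgL1ASP #1, from 0.645 to 0.990. Mock was thus highest and sgL1ASP #3 lowest, 1.99-fold apart, and the intervals of these 2 libraries, 9.80 to 13.1 and 4.52 to 7.11, did not overlap. Between the guides, sgL1ASP #1 was 1.59-fold above sgL1ASP #3, with an interval from 1.21 to 2.09. Among the 12718 genes with mean FPKM at least 1 that were also above 0 in both libraries compared, 1.84% were more than 1.5-fold lower in sgL1ASP #3 than in mock, and 60 had a lower ratio than PRPH. By the same rule 1.67% were more than 1.5-fold higher in sgL1ASP #1 than in sgL1ASP #3. In bulk RNA, fewer cells with peripherin RNA and less of it per cell cannot be told apart, and with 1 library each neither can the guide and the library.

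The nearest listed protein-coding genes on either side of PRPH stayed near their mock level. TUBA1C, a tubulin gene 20.5 kb away on the same strand, had FPKM 147, 138 and 145. TROAP, a spindle protein gene 24.6 kb to the other side, had 54.4, 55.3 and 58.7. Their ratios to mock with sgL1ASP #3 were 0.990 for TUBA1C and 1.08 for TROAP. The noncoding gene TROAP-AS1 overlaps PRPH on the opposite strand and was not analysed here.

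Promoter sequences of PRPH and 3 other members are shown because PRPH differed most between the libraries among the 8 members with FPKM at least 1. They were taken from the RefSeq set for GRCh38.p14, which held windows for 5 of the 8 members looked up, INA, PRPH, VIM, NES and KRT8. Each line gives the 60 bases before the start and the first 20 bases of the transcript on the strand of the gene, with capitals for the motifs searched. The first motif was TATAAA, also read as its reverse complement TTTATA. The second was GGGCGG, whose reverse complement is CCGCCC.
PRPH: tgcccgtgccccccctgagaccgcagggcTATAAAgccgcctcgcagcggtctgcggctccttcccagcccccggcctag
INA: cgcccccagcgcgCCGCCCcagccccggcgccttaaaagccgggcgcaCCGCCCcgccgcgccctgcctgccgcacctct
VIM: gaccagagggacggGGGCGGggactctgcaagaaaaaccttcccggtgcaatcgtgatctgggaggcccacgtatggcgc
NES: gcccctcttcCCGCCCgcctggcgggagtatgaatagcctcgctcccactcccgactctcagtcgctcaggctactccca

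The lines lie at chr12:49295087-49295166 (PRPH, plus strand), chr10:103277078-103277157 (INA, plus strand), chr10:17228181-17228260 (VIM, plus strand) and chr1:156677388-156677467 (NES, minus strand). In the whole windows of 300 bases, PRPH held TATAAA 1 time, 31 bases before the start, and GGGCGG 0 times. INA, VIM and NES held TATAAA 0 times and GGGCGG on either strand 4, 1 and 4 times. For each gene the first window in the set was read. That of KRT8, not shown, held each motif 0 times, so among the windows read PRPH was not alone in having no GGGCGG. KRT8 has 18 annotated transcripts, and whether this window holds the start used in these cells was not tested. Of all 35116 windows of this length, 11.5% held TATAAA and 45.0% held GGGCGG on either strand. A match describes the sequence and does not show a site in use.

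The other members kept within 1.5-fold of mock, NEFH with sgL1ASP #1 excepted. NEFH was 2.03-fold higher in sgL1ASP #1 than in mock on about 14 and 7 reads, for which counting error alone gives an interval from 0.824 to 4.98, so a difference was not detectable at this depth. VIM was at 1.12 of mock in sgL1ASP #1 and 1.07 in sgL1ASP #3, with intervals from 1.10 to 1.14 and 1.04 to 1.09. These shifts of VIM depend on the scaling, since with all libraries brought to 1 common sum of FPKM its log2 change was 0.069 with sgL1ASP #1 and turned to -0.025 with sgL1ASP #3. INA was at 1.11 and 1.07 of mock, with intervals from 1.01 to 1.21 and 0.974 to 1.17, and the common sum turned its log2 change to -0.024 with sgL1ASP #3. For NEFL, NEFM, NES, KRT8 and KRT18 the intervals of both ratios to mock included 1, and the ratios lay between 0.874 (NES with sgL1ASP #3) and 1.08 (KRT8 with sgL1ASP #3).

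**Figure D2:**
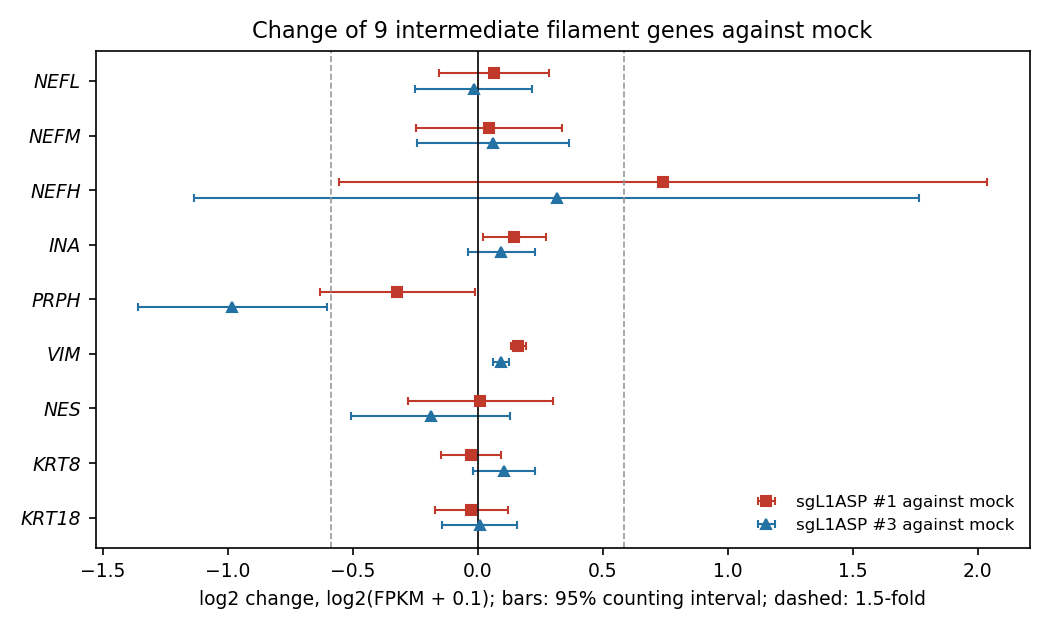
The log2 change against mock, taken as log2(FPKM + 0.1), is plotted on the horizontal axis for 9 genes with sgL1ASP #1 (squares) and sgL1ASP #3 (triangles), with 95% counting intervals and dashed lines at 1.5-fold. Only the interval of PRPH with sgL1ASP #3, from -1.36 to -0.60, lies wholly beyond a dashed line, and the intervals of NEFH are the widest.

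**Figure D3:**
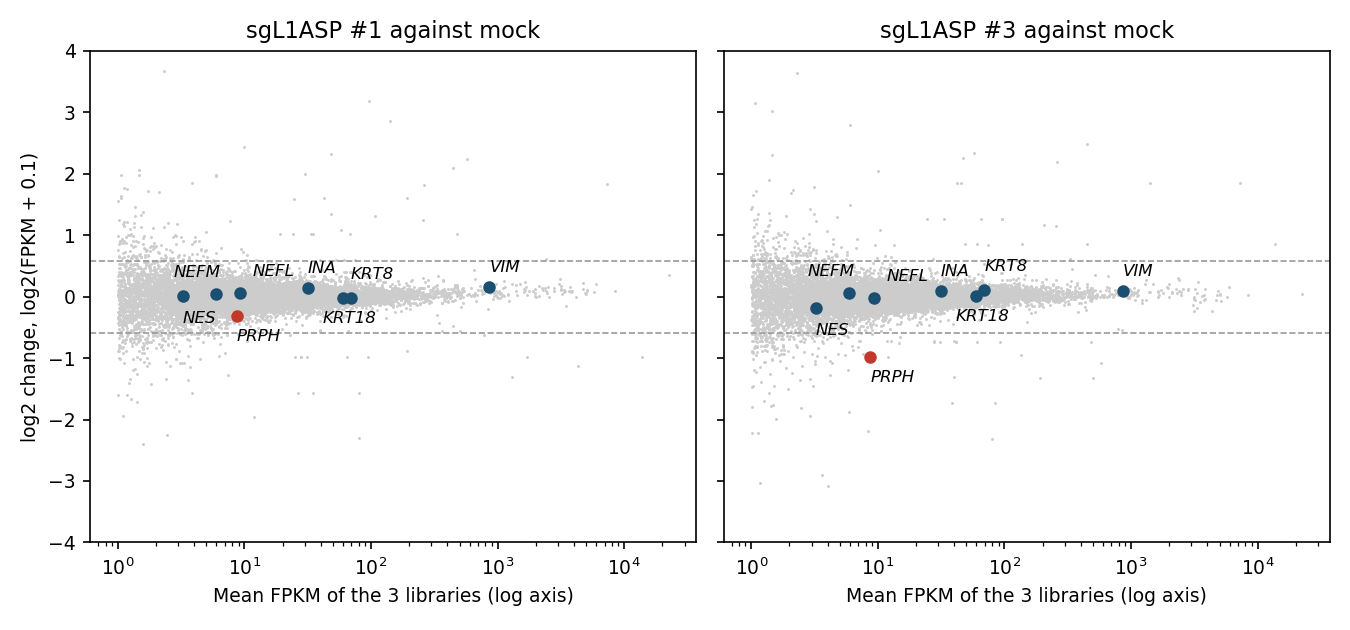
Each grey point is 1 of the 12830 genes with mean FPKM at least 1, with the mean FPKM of the 3 libraries on a log horizontal axis and the log2 change against mock on the vertical axis, and the named points are the 8 members in this range. A total of 134 genes lie beyond the vertical axis in either panel. PRPH is at -0.32 with sgL1ASP #1 and -0.98 with sgL1ASP #3, and the other 7 stay between the dashed 1.5-fold lines.

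The remaining intermediate filament genes were read for comparison. Of the 55 keratin genes listed, KRT8 and KRT18 included, 4 reached FPKM 1 in every library and 42 were listed at 0 in all 3. Besides the simple pair these were KRT10, a keratin best known from the upper layers of the skin, with FPKM 8.72, 7.88 and 9.60, and KRT222, a keratin-related gene, with 2.62, 2.02 and 3.52. Of these 4 genes, 0 were past 1.5-fold with either guide. Over all 12347 genes that reached FPKM 1 in each of the 3 libraries, 0.988% were more than 1.5-fold higher and 1.13% lower with sgL1ASP #1, and 1.05% higher and 1.14% lower with sgL1ASP #3. KRT7 and KRT20, other keratins of simple epithelia, were at or near 0, with a highest FPKM of 0.0645 for KRT7. The pseudogene names KRT8P41 and KRT18P55 had FPKM of at most 0.0595 and 0.387.

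Of 9 further genes of the family (the lamins, DES, GFAP, SYNM, SYNC, BFSP1 and BFSP2), 5 had FPKM at least 1 in every library. The lamins, which line the nucleus of all cells, were high, with FPKM 109 for LMNB2, 61.5 for LMNB1 and 35.6 for LMNA in mock. SYNM, the partner synemin, had 2.60, 1.91 and 2.05. SYNC, the filament-associated syncoilin gene, had 1.71, 1.11 and 1.11, and was the 1 gene of the 5 past 1.5-fold, at 1.54-fold lower with both guides, where 1.13% and 1.14% of all genes at this level were lower. The SYNC values rest on about 59, 38 and 32 reads, and the counting intervals of its ratio to mock, 0.430 to 0.974 and 0.423 to 1.00044, reached or came close to 1. The sum of the 9 genes was 213, 212 and 210.4.

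Genes that tie filaments to other structures were present at moderate levels. Of 10 such genes, 8 reached FPKM 1 in every library, and 0 of them were past 1.5-fold with either guide. DSP, the desmosomal anchor of keratins, had FPKM 16.8, 17.7 and 16.9. PLEC, which encodes the linker plectin, had 11.1, 10.96 and 11.2. In mock, TCHP had 9.19, MACF1 7.60, DST 5.96 and FAM83H 5.83. EVPL and PPL, linkers of stratified epithelia, had at most 0.0179 and 0.252.

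Marker lists were then read to place the filaments among the other genes of each cell type. Of 18 neuronal genes, 10 reached FPKM 1 in every library, and the list summed to 257, 242 and 260. Most of that was UCHL1, a ubiquitin hydrolase abundant in neurons, with 174, 157 and 177, followed by ENO2, the neuronal enolase, with 27.8, 31.8 and 30.8. The defining genes of neurons were split. SYP, a synaptic vesicle protein gene (19.3, 19.4 and 18.8), RBFOX3, which encodes the nuclear marker NeuN (5.24, 4.88 and 4.31), and MAPT, the tau gene (2.83, 2.83 and 3.39), were among those with FPKM at least 1. ELAVL4 is listed at 0 in all 3 libraries, ELAVL3 had at most 0.0213, DCX at most 0.0854 and MAP2 at most 0.0746. These 7 genes were named after their values were seen. Of the 10 expressed neuronal genes, 1 was past 1.5-fold lower with sgL1ASP #1, beside 1.13% of all genes, and 0 with sgL1ASP #3. It was TUBB3, a neuronal tubulin, likewise named after its values were seen, with FPKM 8.32, 5.24 and 6.09. The TUBB3 values rest on about 131, 81 and 80 reads. The counting intervals of its ratio to mock were 0.478 to 0.831 with sgL1ASP #1 and 0.554 to 0.967 with sgL1ASP #3, both below 1.

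Of 8 genes of neural progenitors, 4 had FPKM at least 1 in every library, led by MSI1 (19.02, 19.7 and 19.2) and HES5 (17.3, 16.9 and 19.4), and the list summed to 42.9, 43.5 and 45.0. FABP7 is listed at 0 in all 3 libraries. SOX1 had at most 0.0488, PROM1 at most 0.0528 and NEUROG2 at most 0.661. Of 11 genes of the adrenal medulla, whose cells also use peripherin, 2 reached FPKM 1 in every library, GATA3 (6.78, 7.17 and 7.96) and PNMT (3.11, 2.95 and 3.499). The sum was 11.8, 11.7 and 13.03, and SLC18A1, a vesicular monoamine transporter gene, is listed at 0 in all 3 libraries. Of 7 genes of the adrenal cortex, 0 reached FPKM 1, and their sums were 0.256, 0.336 and 0.372, led by NR5A1 (0.165 in mock) and CYP17A1 (0.207 in sgL1ASP #3). CYP11A1 and CYP21A2 are listed at 0 in all 3 libraries. Of 8 glial genes, OLIG2 alone reached FPKM 1 in every library (4.46, 4.01 and 4.97). GFAP had 1.21, 0.767 and 0.915, and the list summed to 6.99, 6.01 and 6.77.

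Beside the keratin pair, general epithelial genes were low. Of 12, only OCLN (3.46, 3.64 and 3.49), CLDN4 (2.24, 1.85 and 2.34) and CLDN7 (2.43, 1.09 and 1.72) reached FPKM 1 in every library, and CLDN7 was past 1.5-fold lower with sgL1ASP #1, beside 1.13% of all genes, on about 15 reads against 34 in mock. E-cadherin, CDH1, had at most 0.149, EPCAM at most 0.383, and ESRP1 and GRHL2 are listed at 0 in all 3 libraries. The list summed to 9.002, 8.01 and 8.73. Of 13 mesenchymal genes, 8 had FPKM at least 1 in every library, with 0 past 1.5-fold, and their list summed to 72.2, 72.3 and 72.4. SNAI2, a repressor of E-cadherin, had 22.1, 22.5 and 24.2, and CDH2, which encodes N-cadherin, had 18.3, 16.4 and 17.1. COL1A2 is listed at 0 in all 3 libraries.

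Of 5 early renal factors, 2 had FPKM at least 1 in every library, EMX2 (2.30, 1.97 and 1.87) and LHX1 (1.48, 1.76 and 1.63), and the sums were 4.34, 4.41 and 4.21. PAX2 had at most 0.658 and PAX8 at most 0.0281. Of 12 genes of the mature nephron, 2 did, PODXL (3.27, 3.92 and 2.66) and LRP2 (1.38, 1.07 and 1.26), with sums of 5.94, 6.23 and 5.17. UMOD, SLC12A1, AQP2 and SLC34A1 are listed at 0 in all 3 libraries, so few of the defining markers of mature kidney were present. Of 6 squamous genes, 0 reached FPKM 1 in every library, with KRT17 (0.906 in mock) and SFN (0.602 in mock) the highest, sums of 1.55, 1.05 and 1.16, and KRT14 and TP63 listed at 0. Among genes of blood cells, PTPRC, CD3E and HBB are listed at 0 in all 3 libraries. HBA1 had FPKM 0.259, 1.31 and 2.80, for which no reads and no counting interval were estimated. In sgL1ASP #3, where PRPH was lowest, the neuronal list summed to 260 against 257 in mock, but to 82.9 against 83.4 without UCHL1, and 6 of its 18 genes were above mock and 11 below. The adrenal medulla list summed to 13.03 against 11.8, or 5.07 against 5.04 without GATA3, with 4 of 11 genes above mock and 3 below. The part of such cells in the PRPH values was not tested.

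**Figure D4:**
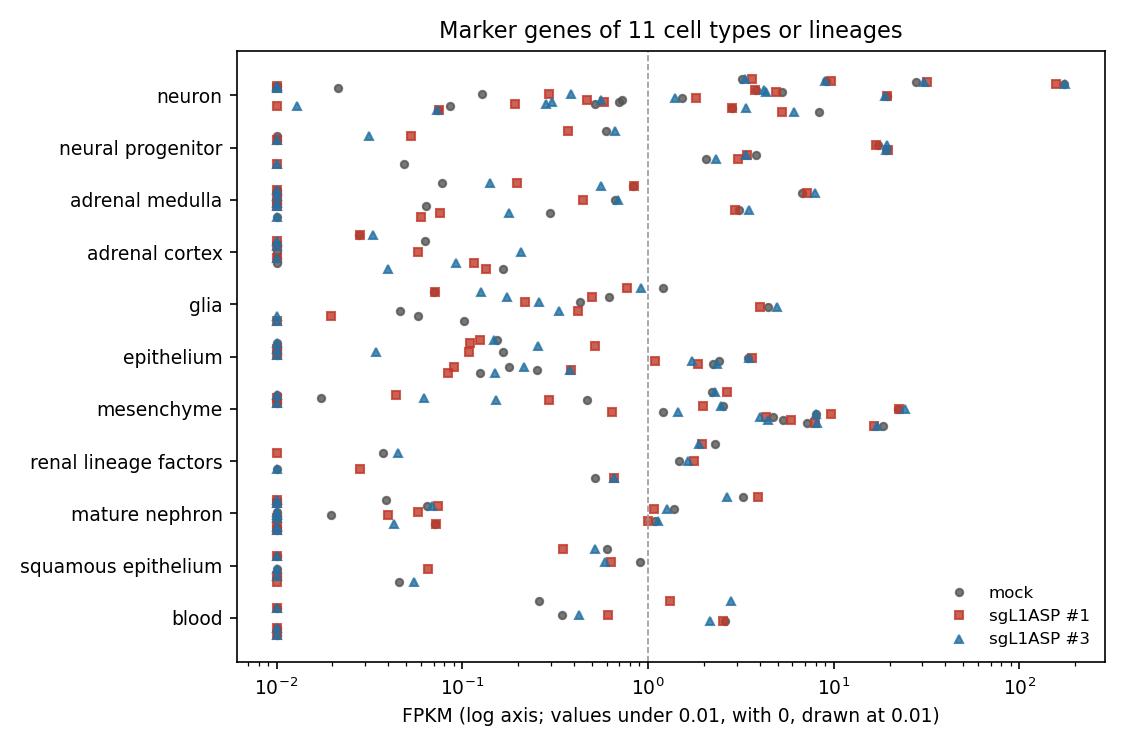
Each point is the FPKM of 1 listed gene on a log horizontal axis, in mock (circles), sgL1ASP #1 (squares) and sgL1ASP #3 (triangles), with the 11 lists on the vertical axis, values under 0.01 drawn at 0.01 and a dashed line at FPKM 1. The neuronal, neural progenitor and mesenchymal lists have 10 of 18, 4 of 8 and 8 of 13 genes above the line in every library, and the epithelial list 3 of 12.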

How the data were processed

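The 3 libraries, 1 per condition, are stranded mRNA libraries read as 75-base single ends. Per the labels (the submitters' processing notes), the authors used TopHat2 2.0.13, Bowtie2 2.2.3, SAMtools 0.1.19 and Cufflinks 2.2.1 with hg19, and they deposited FPKM per gene, calculated in a strand-specific mode. The annotation, the scaling between libraries and the handling of multiply mapped reads are not given in the sources used here. All 3 value columns were assigned to a sample from its label, and 0 were left over.

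The members and lists were chosen with earlier results of these data known. Ratios used FPKM as deposited, and log2 changes a pseudocount of 0.1. Named were all members, up to 6 genes with FPKM at least 1 of each related list, the 2 most abundant genes of each marker list with any past 1.5-fold the same way with both guides at FPKM at least 1, and the 2 genes nearest in level to INA, VIM and KRT8. Others were named after their values were seen. All 135 list entries matched, and a few of these genes are not reported here. Reads were estimated as FPKM times canonical transcript length less 200 bases times depth, the depth from 954 to 1001 genes with 1 GENCODE 44 transcript over 1000 bases (35 to 56 in the peak). GENCODE coordinates are on GRCh37, the sequence of hg19, and promoters are those of RefSeq on GRCh38.p14. The depth estimate and the fold threshold were tested on simulated data. Alternatives were pseudocounts, scalings, thresholds, filters and fragment lengths. Python 3.11.15, pandas 2.3.3, NumPy 2.4.6, SciPy 1.17.1, Biopython 1.88 and matplotlib 3.10.9 were used.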

Additional observations from a re-analysis of the deposited data

How the results depend on the processing

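No paired analysis was possible because only 1 library represents each condition. PRPH was below mock in sgL1ASP #3 under each alternative run, by 1.99-fold on the deposited scale, so with the 2-fold threshold 0 members were lower in that comparison and 0 higher in sgL1ASP #1 against sgL1ASP #3. At 1.5-fold, rescaling to an FPKM sum of 1000000 moved the number higher in sgL1ASP #1 against sgL1ASP #3 from 1 to 2. The 1 member higher with sgL1ASP #1 against mock, NEFH, went to 0 with a pseudocount of 1 and with mean FPKM at least 1. With NEFL, NEFM and NEFH alone as neuronal genes, the ratio of keratin to neuronal FPKM was 8.49, 7.92 and 8.72 in the 3 libraries. The numbers of listed genes found depended on the threshold. At FPKM 3 they were 1 for VIM and NES, 3 for the further filament genes, 1 for the adrenal medulla, 1 for the epithelium and 0 for the renal factors, the mature nephron and blood. At FPKM 0.3 they were 4 for the adrenal medulla and 2 each for glia, squamous epithelium and blood. Of 18 single log2 changes, 2 moved by more than counting error on rescaling to the same sum, both of VIM. That rescaling put PRPH with sgL1ASP #3 at -1.104, past 2-fold, and turned the members' median to -0.048 with sgL1ASP #1 and -0.057 with sgL1ASP #3. Of 30 estimated read numbers, 1 moved with 100 bases and 6 with 0 bases taken from the transcript length. The depth limits NEFH and KRT19 most.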
